A study of Mus musculus with 8 samples.

Results

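The 10 genes described here were Vegfa, Kdr, Flt1, Pecam1, Cdh5, Tek, Tie1, Eng, Vwf and Lyve1, which mark the endothelial cells of blood and lymph vessels or carry Vegf signals to them. They were found by gene symbol in the deposited table and made up 10 of its 18770 genes. Skin of the mouse back was depilated, which starts a new growth phase (anagen) of the hair follicles, and alpinetin (AP), a plant flavonoid, or its vehicle (VC) was applied to it each day. The dermis with its hair follicles was taken at day 4 after depilation, with the epidermis between the follicles removed, and its messenger RNA was sequenced. Both groups were wildtype mice aged 7 to 8 weeks, of strain C57BL/6 by the sample labels and C57BL/6J by the study's methods. The 4 VC mice received 20 µl of 65% ethanol, and the 4 AP mice received alpinetin at 3 mg/ml in 20 µl of 65% ethanol. The libraries are named by group and number, such as VC.1 and AP.1, and none of them could be tied to the number of a mouse. The comparison addressed whether vessel genes differ between the groups, since vessels of the skin grow with the follicles in anagen.

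Vegfa is a secreted growth factor that makes endothelial cells divide, migrate and sprout, and in skin it is made mainly by keratinocytes of the follicle and epidermis. It acts through the receptor tyrosine kinases Kdr and Flt1 on endothelial cells, while angiopoietins act through the kinase Tek and its partner Tie1 to steady or loosen the vessel wall. In rodent skin the network around the follicle widens as anagen proceeds and shrinks again as the follicle regresses.

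The VC libraries had 6454563 to 7264151 reads on the listed genes and the AP libraries 8507783 to 11190113. The smallest count behind a value of the 10 genes was 20 reads, for Tek in VC.1. Reads of mitochondrial genes were 48.4% ± 5.81 of a VC library but 8.66% ± 2.63 of an AP library (mean ± SD, n = 4 each). Scaling without these genes was tried and is given at the end. Any other part of this difference in the results below was not tested. Values are normalized counts, listed for libraries 1 to 4 of each group in turn, that is, reads divided by 1 size factor per library. Fold changes compare AP with VC as log2 differences of log2(value + 1), and the adjusted p-values are those of limma over the 15964 genes that passed a filter on low values. AP.2 stood apart from the other AP libraries in vessel genes. It was the highest of the 8 libraries in 9 of the 10 genes and in 68 of 111 other vascular genes (61.3%), but in 2080 of the 15964 genes tested. Results are therefore given with and without it.

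All 10 genes passed the filter, and 3 of them, Flt1, Pecam1 and Cdh5, rose at an adjusted p under 0.05, beside 6.33% of all genes tested. By edgeR 3 were higher too, beside 6.28% of all genes, and by DESeq2 9, all but Lyve1, beside 10.5%. By limma without its intensity trend none was, beside 376 of the 15964 genes. None of the 10 was lower in AP at an adjusted p under 0.05 by limma, edgeR or DESeq2, beside 4.0%, 4.46% and 8.55% of all genes, or at an unadjusted p under 0.05 by limma, beside 13.3%. With the cut-offs of the study's methods, a fold change over 1.5 with an unadjusted p under 0.01, applied here to the limma fit where the study used DESeq2, 9 of the 10 were higher, all but Lyve1, beside 8.26% of all genes. Without AP.2 this number was 3, beside 6.17% of all genes, and it was 5 with the length trend removed (5.81% of all genes), 5 with upper-quartile factors (7.1%) and 2 without the intensity trend (6.53%). In 6 of the 10 every AP library lay above every VC library, as in 10.3% of all genes. The median log2 fold change was 1.41 over the 10 genes and 0.06 over all genes tested. Without AP.2, the median was 1.08 and 2 genes, Flt1 and Pecam1, had an adjusted p under 0.05, beside 2.49% of all genes tested. In whole tissue, more cells that make these RNAs and more of the RNAs per cell cannot be told apart. Such cells need not be endothelial, since in skin Vegfa is made mainly by keratinocytes.

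**Figure D1:**
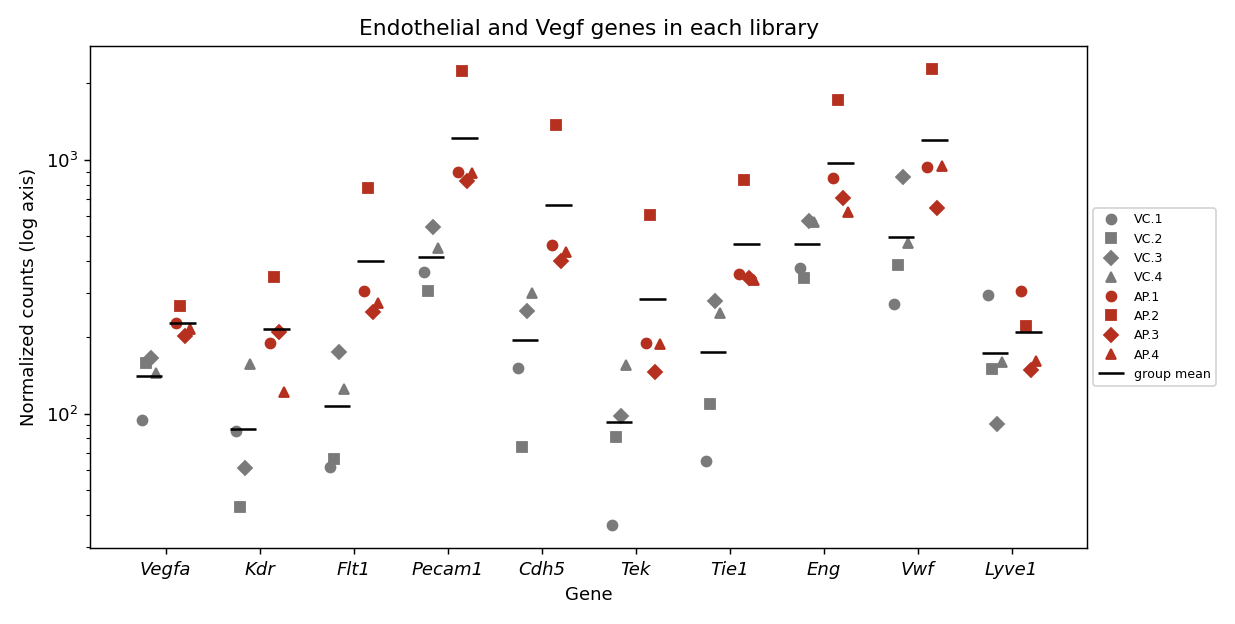
Normalized counts (log axis) of the 10 genes in each of the 8 libraries, with 1 point per library, VC in grey, AP in red, a marker shape for each library and a black line at each group mean. AP.2 (red squares) was the highest library in 9 of the 10 genes, and the groups overlapped in Kdr, Tek, Vwf and Lyve1.

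Vegfa (ENSMUSG00000023951), on the minus strand of chromosome 17 of mm10 from 46016993 to 46032369, had 94.6, 158, 165 and 144 normalized counts in VC, against 228, 266, 203 and 216 in AP. Every AP library was above every VC library, VC.1 was the lowest, and the AP libraries lay close together. The log2 fold change was 0.72 (SE 0.22), with an adjusted p of 0.0537 from limma, just short of the threshold, and it was 0.65 without AP.2. Vegfa was the member least raised in AP.2 relative to its fellow AP libraries, at 1.23 times their median.

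Kdr (ENSMUSG00000062960; chromosome 5, from 75932827 to 75978458), the main signalling receptor for Vegfa on endothelial cells, had 85.5, 42.9, 61.4 and 158 normalized counts in VC, against 190.0, 345, 210.3 and 122 in AP. The groups overlapped, because AP.4 fell below VC.4. Its log2 fold change was 1.38 (SE 0.40, limma adjusted p = 0.0508), and it was 1.12 without AP.2. Flt1 (ENSMUSG00000029648; chromosome 5, from 147561604 to 147726011) binds Vegfa more tightly than Kdr does but signals weakly, and its soluble form traps the ligand. It had 61.8, 66.5, 175 and 126 normalized counts in VC, against 305, 775, 251 and 273 in AP. The groups did not overlap, and AP.2 was 2.84 times the median of the other AP libraries. Flt1 rose by a log2 fold change of 1.86 (SE 0.41, limma adjusted p = 0.0212), the largest of the 10. Without AP.2 it was 1.49, with an adjusted p of 0.0482, and without VC.1 the adjusted p was 0.0530 (5.40e-04 to 0.0609 over the 21 alternatives fitted to each gene).

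Tek (ENSMUSG00000006386; chromosome 4, from 94739289 to 94874976), the angiopoietin receptor also called Tie2, had 36.4, 81.3, 98.3 and 156 normalized counts in VC, against 189, 606, 146 and 189 in AP. AP.3 fell below VC.4, so the groups overlapped, and AP.2 was 3.21 times the median of the other AP libraries, the largest such ratio among the 10. The log2 fold change was 1.52 (SE 0.49, limma adjusted p = 0.0649) and 1.07 without AP.2. Tie1 (ENSMUSG00000033191; chromosome 4, from 118471191 to 118490061), an orphan receptor that pairs with Tek, had 65.5, 109, 279 and 249 normalized counts in VC, against 357, 834, 341 and 337 in AP. Its AP libraries other than AP.2 were close together, and all 4 lay above the VC libraries, which were spread widely. Its log2 fold change was likewise 1.52 (SE 0.45, limma adjusted p = 0.0519), and 1.20 without AP.2.

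Pecam1 (ENSMUSG00000020717; chromosome 11, from 106654217 to 106750628) encodes CD31, an adhesion protein at endothelial contacts that platelets and leukocytes carry as well. It had 362, 304, 546 and 452 normalized counts in VC, against 896, 2244, 826 and 892 in AP. AP.1, AP.3 and AP.4 were nearly equal and above every VC library, and AP.2 was 2.52 times their median. Pecam1 rose by a log2 fold change of 1.44 (SE 0.31, limma adjusted p = 0.0198). It was 1.10 without AP.2, and its adjusted p stayed under 0.05 with each of the 8 libraries left out in turn. The call was lost without the intensity trend of limma, at an adjusted p of 0.0608 (3.97e-04 to 0.0608 over the 21 alternatives). Cdh5 (ENSMUSG00000031871; chromosome 8, from 104101625 to 104144511), the VE-cadherin that seals endothelial junctions, had 151, 73.9, 254 and 300.0 normalized counts in VC, against 463, 1373, 398 and 433 in AP. The lowest AP library was above the highest VC library, and AP.2 was again far above the rest. Cdh5 rose by a log2 fold change of 1.75 (SE 0.47, limma adjusted p = 0.0386). Without AP.2 the log2 fold change was 1.33 and the adjusted p 0.0887, and the call was also lost without VC.1, VC.2, AP.3 or AP.4 (0.0015 to 0.0949 over all 21 alternatives).

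Eng (ENSMUSG00000026814; chromosome 2, from 32646595 to 32682669), a co-receptor for TGF-beta family ligands on endothelium, had 377, 343, 576 and 570.0 normalized counts in VC, against 846, 1715, 709 and 626 in AP. The groups did not overlap, though AP.4 was close to VC.3 and VC.4. Its log2 fold change was 0.98 (SE 0.30, limma adjusted p = 0.0584) and 0.67 without AP.2. A stretch of 61 bases of its exons overlaps an exon of Fpgs on the opposite strand, so some of its reads may belong to Fpgs. Vwf (ENSMUSG00000001930; chromosome 6, from 125546774 to 125686679), the clotting factor that endothelium stores and that megakaryocytes make too, had 271, 387, 858 and 471 normalized counts in VC, against 936, 2285, 644 and 948 in AP. AP.3 lay below VC.3, so the groups overlapped. Its log2 fold change was 1.23 (SE 0.40, limma adjusted p = 0.0653) and 0.87 without AP.2.

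Lyve1 (ENSMUSG00000030787; chromosome 7, from 110850607 to 110863239), a hyaluronan receptor of lymphatic capillaries that some tissue macrophages carry as well, had 295, 151, 91.5 and 159 normalized counts in VC, against 305, 222, 149 and 162 in AP. VC.1 and AP.1 were the high libraries and the groups overlapped almost wholly. The log2 fold change was 0.33 (SE 0.34, limma adjusted p = 0.541) and 0.28 without AP.2. It was 0.07 without VC.3, 0.13 without AP.1, 0.62 without VC.1 and above 0 with each other library left out. Lyve1 was the one member in which AP.2 was not the highest library.

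**Figure D2:**
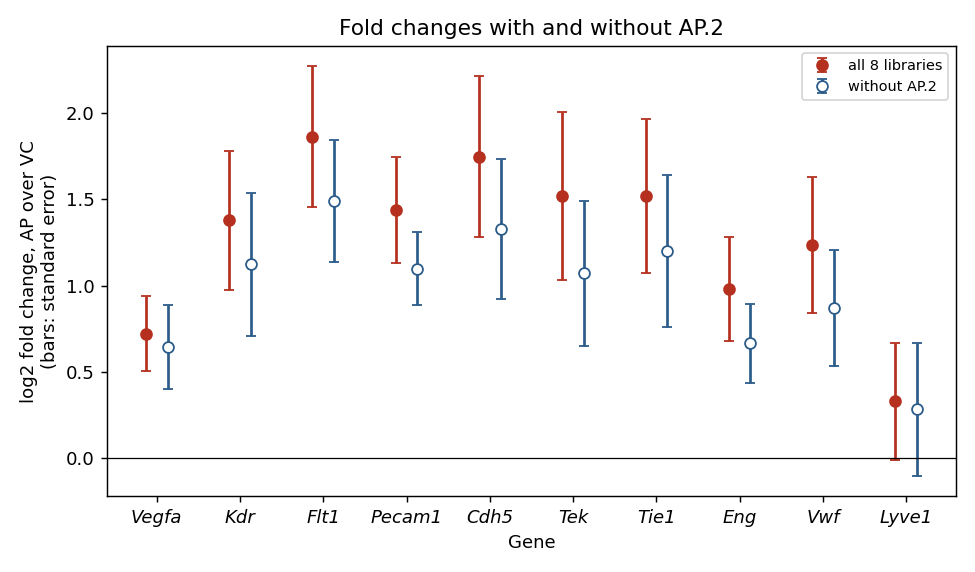
Log2 fold change (AP over VC, limma) of the 10 genes with all 8 libraries (filled red points) and without AP.2 (open blue points), with bars of 1 standard error. Every value was lower without AP.2 and none changed sign; Tek went from 1.52 to 1.07 and Vegfa from 0.72 to 0.65.

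Levels were compared between the genes per kilobase of merged exons. In the VC group Eng had the highest level, with 115 ± 30.6 normalized counts per kilobase (SD, n = 4), followed by Pecam1 with 66.8 ± 16.99 and Lyve1 with 59.6 ± 29.4. Cdh5, Tie1, Vegfa, Vwf and Tek came next, from 46.3 down to 19.7, and the Vegf receptors were lowest, Kdr with 9.62 ± 5.56 and Flt1 with 7.94 ± 3.97. In the AP group the levels per kilobase ran from 241 ± 124 for Eng and 195 ± 110 for Pecam1 down to 29.7 ± 18.5 for Flt1 and to Kdr, whose libraries lay between 13.5 and 38.2. Lyve1 was the third in this order in the VC group and the sixth in the AP group, with 71.7 ± 24.5. Neighbours in the order overlapped in the range of their libraries in 9 of 9 pairs in either group, so only genes farther apart in it were separated.

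Around these 10 genes, 111 other genes of vascular lists were tested. Of these, 26 were higher and 2 were lower in AP at an adjusted p under 0.05 by limma, beside 6.33% higher and 4.0% lower among all genes tested. The same 2 shares of all genes stand beside the count of each list below. By edgeR they were 6.28% and 4.46%, and by DESeq2 10.5% and 8.55%. At an unadjusted p under 0.05, 2720 genes were higher and 2120 lower of all 15964 by limma, 2503 and 2238 by edgeR, and 2711 and 2423 of 15921 by DESeq2. Over the 111 the median log2 fold change was 0.70, against 0.06 over all genes. Without AP.2, 15 were higher and none was lower by limma, beside 2.49% and 0.971% of all genes, and the median was 0.57. The adjusted p of 10 of the 26 stayed under 0.05 with each library left out in turn, namely Flt4, Ptprb, Plvap, Sox7, Klf4, Reln, Notch3, Myh11, Adamts1 and Timp3. Another 11 had an adjusted p of 0.05 or more without AP.2 and also without at least 1 other library: Mmrn2, Cyyr1, Dll4, Notch4, Mmrn1, Kcnj8, Acta2, Pdgfb, Slc2a1, Thbs1 and Sema3f. Their log2 fold changes without AP.2 were not all smaller, with Kcnj8 going from 1.54 to 1.64 and Slc2a1 from 1.70 to 1.86, while Notch4 went from 1.36 to 1.05 and Thbs1 from 1.07 to 0.80. Of the other 5, Sele was lost without AP.3, Ets2, Hif1a and Egln3 without AP.3 or AP.4, and Epas1 without AP.3, AP.4 or any of the VC libraries. In all, 12 were higher without AP.3, beside 1.31% of all genes, and 12 without AP.4, beside 1.59%.

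Among the 5 Vegf ligands none passed the adjusted threshold by limma or edgeR, 2 were higher and 1 was lower at an unadjusted p under 0.05, and 2 were higher by DESeq2. The most abundant besides Vegfa were Vegfb, with 324, 220.2, 199 and 411 normalized counts in VC, against 243, 229.7, 148 and 120.2 in AP, and Vegfd. The Vegfb groups overlapped. Its log2 fold change of -0.63 (SE 0.29, limma adjusted p = 0.165) had the opposite sign to that of Vegfa. The Vegfb value was 0.23 with scaling by total counts, which raised the median of all genes, and below 0 with every other scaling tried. Vegfd, a ligand of the lymphatic receptor Flt4, had a log2 fold change of 0.75 (SE 0.35, limma adjusted p = 0.178). Its groups overlapped, and its log2 fold change was 0.46 without VC.1.

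Of the 5 Vegf receptors and co-receptors, Flt1 and Flt4 rose. Flt4, the receptor of lymphatic endothelium, had 32.7, 7.39, 34.1 and 13.1 normalized counts in VC, against 112, 225, 120 and 96.6 in AP. The groups did not overlap, and the lowest AP library was far above the highest VC library. Its log2 fold change was 2.77 (SE 0.49, limma adjusted p = 0.0107), larger than that of any of the 10 genes. One of the 6 angiopoietin and Tie genes rose, Ptprb, the phosphatase VE-PTP that dampens Tek and holds Cdh5 junctions. It had 167, 118, 270.4 and 186 normalized counts in VC, against 590, 1538, 539 and 620 in AP, with no overlap, and a log2 fold change of 2.06 (SE 0.34, limma adjusted p = 0.0090).

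Of the 28 endothelial surface and junction genes, 5 rose and 26 had a value above 0. Besides Pecam1 and Cdh5 these 5 were Plvap, the diaphragm protein of fenestrated capillaries (log2 fold change 1.79, SE 0.35), Mmrn2, a matrix protein of endothelium (2.61, SE 0.55), and Cyyr1 (3.25, SE 0.89). Plvap went from 495 ± 208 normalized counts in VC to 1711 ± 839 in AP (SD, n = 4 each), and Cyyr1 from 13.1 ± 9.69 to 96.9 ± 73.4. The VC values of Cyyr1 rest on 0, 8, 16 and 10 reads, so its fold change depends on the pseudocount, and it was 2.21 without VC.1. Egfl7, a secreted endothelial protein, had a value below 0 (-0.40, SE 0.24, limma adjusted p = 0.291), as did Tspan18. Both were singled out after their values were seen, and both were above 0 with scaling by total counts but with no other scaling tried. Without VC.3 the value of Egfl7 was -0.64 (limma adjusted p = 0.0606). Of the 16 endothelial transcription factors, Ets2, Sox7 and Klf4 rose, by log2 fold changes of 0.81, 1.70 and 1.07. Another 3, Sox18, Bcl6b and Mef2c, had values below 0. They were above 0 with scaling by total counts, but with no other scaling tried. Sox18 was lower in every AP library than in any VC library (-0.56, SE 0.18, limma adjusted p = 0.0636, DESeq2 adjusted p = 0.0317). Sox7 had 45.5, 51.7, 66.9 and 56.3 normalized counts in VC, against 131, 196, 167 and 245 in AP. It was thus above the VC range in each AP library, with AP.4 and not AP.2 the highest, and Klf4, which keratinocytes of the upper epidermis also express, was highest in AP.4 as well.

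Of the 14 tip cell and arterial genes, the Notch ligand Dll4 (1.46, SE 0.39) and the receptor Notch4 (1.36, SE 0.34) rose, and the chemokine receptor Cxcr4 fell. With the length trend removed, as described below, both calls of a rise were lost. Dll4 was then at 1.35 (limma adjusted p = 0.0599) and Notch4 at 0.996 (limma adjusted p = 0.0911). Cxcr4 had 238, 127, 149 and 191 normalized counts in VC, against 84.9, 80.9, 88.2 and 66.5 in AP. All AP libraries were below all VC libraries, and the log2 fold change was -1.10 (SE 0.24, limma adjusted p = 0.0222); the call was lost without AP.2, AP.3 or AP.4, though the log2 fold change without AP.2 was again -1.10. With scaling by total counts it was -0.23. Of the 6 venular and inflamed endothelium genes, Sele, the E-selectin that catches leukocytes, rose. It had 0, 1.48, 6.83 and 0 normalized counts in VC, against 29.7, 106, 48.3 and 15.0 in AP. The VC values rest on 0, 1, 5 and 0 reads, so its log2 fold change of 4.26 (SE 0.81, limma adjusted p = 0.0142) depends on the pseudocount.

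Of 6 lymphatic genes tested, 3 rose: Flt4, Mmrn1 (2.32, SE 0.52) and Reln (2.30, SE 0.39). Reln, a secreted matrix protein of collecting lymphatics, had 16.4, 41.4, 73.7 and 30.0 normalized counts in VC, against 197, 211, 142 and 165 in AP. Every AP library was far above the highest VC library, unlike in Lyve1. The difference between Lyve1 and the other lymphatic genes was not tested. Of 11 pericyte and vascular smooth muscle genes, 5 rose. Myh11, the smooth muscle myosin, had 91.0, 142, 160 and 128 normalized counts in VC, against 781, 1691, 572 and 759 in AP. The groups were far apart even at their nearest, and the log2 fold change was 2.76 (SE 0.30, limma adjusted p = 0.0023). The other 4 were Notch3 (1.93, SE 0.29), Kcnj8 (1.54, SE 0.44), Pdgfb (1.35, SE 0.35) and Acta2 (1.20, SE 0.28). Pdgfb encodes a ligand that acts on pericytes and is no marker of them. At an unadjusted p under 0.05 by limma, 6 of the 11 were higher and 1, Des, was lower (-1.33, SE 0.50, limma adjusted p = 0.105). None was lower at that threshold by edgeR or DESeq2. Smooth muscle of the skin outside vessels expresses Myh11 and Acta2 too.

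Of the 14 hypoxia response genes, 4 rose and 1 fell. The oxygen-regulated factors Hif1a (0.93, SE 0.19) and Epas1 (0.93, SE 0.24), the prolyl hydroxylase Egln3 (1.48, SE 0.32) and the glucose transporter Slc2a1 (1.70, SE 0.43) were the 4. Epas1 was highest in AP.2, as most vessel genes were, while Hif1a, Egln3 and Slc2a1 were highest in AP.4, as was the sum of suprabasal keratinocyte markers given below. Vhl, which marks these factors for breakdown, fell by 0.68 on the log2 scale (SE 0.20, limma adjusted p = 0.0495). With scaling by total counts, but with no other scaling tried, its log2 fold change was above 0, at 0.19. Leaving out a library ended the call in 7 of 8 cases. Of the 11 angiogenesis inhibitors, 4 rose: Thbs1 (1.07, SE 0.27), Adamts1 (1.16, SE 0.23), Sema3f (1.10, SE 0.31) and Timp3 (1.09, SE 0.20).

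**Figure D3:**
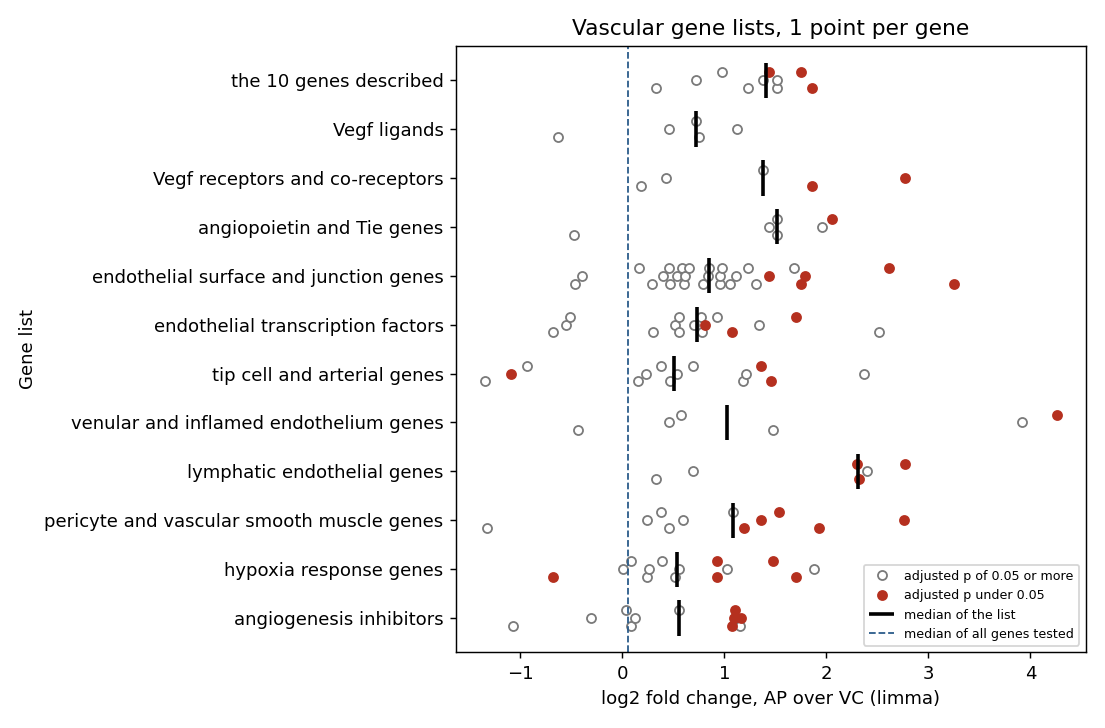
Log2 fold change (AP over VC, limma) of each tested gene of 12 lists, with 1 point per gene, red where the adjusted p was under 0.05, a black bar at the list median and a dashed line at the median of all genes tested (0.06). Genes of the first list also appear in the list of their role; the lymphatic list had a median of 2.31 and the Vegf ligands 0.72.

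Markers of other cell types moved as well, and their part in the vessel results was not tested. Of 8 markers of suprabasal keratinocytes 7 rose, with a median log2 fold change of 3.11, and their summed level was 5497, 11828, 8066 and 5248 normalized counts in VC, against 41157, 39191, 115713 and 163264 in AP. Krt10 was the most abundant of them and none was at 0, and the sum was lowest in AP.2 among the AP libraries, where the vessel genes were highest. Of 6 markers of basal keratinocytes 3 rose, and their sum, led by Krt14, was 24117, 78090, 46700 and 21902 in VC, against 49171, 52381, 94066 and 138232 in AP. Of 8 blood endothelium markers 2 rose, Pecam1 and Cdh5, the median was 1.17, and the sum, led by Pecam1, was 1359, 1351, 1914 and 2293 in VC, against 3143, 6183, 2635 and 2843 in AP. None of these 8 markers was at 0, so the tissue held endothelial RNA in every library.

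Of 8 macrophage markers none passed the threshold by limma or edgeR and 1 was lower by DESeq2, while at an unadjusted p under 0.05 3 were lower by limma and 4 by edgeR or DESeq2. Their sum, led by F13a1, was 5268, 3511, 3063 and 7961 normalized counts in VC, against 4600, 3547, 2577 and 2452 in AP, with Timd4 at 0 in VC.1. Of 5 leukocyte markers tested none passed by limma or edgeR, 2 were higher and 1 lower at an unadjusted p under 0.05, and 1 was higher and 1 lower by DESeq2. Their sum, of which Lyz2 made up 93.2%, was 9932, 4719, 3830 and 12116 in VC, against 4886, 3638, 2791 and 3026 in AP, and none was at 0. Neither of 2 platelet markers tested passed by limma, edgeR or DESeq2; at an unadjusted p under 0.05 none was called by limma or edgeR and 1 was lower by DESeq2. The platelet sum, led by Pf4, was 622, 245, 276 and 536 in VC, against 540.3, 365, 291 and 276 in AP, and Ppbp was at 0 in VC.1, VC.3, VC.4, AP.1 and AP.4.

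Red blood cell markers were led by Hbb-bs, which alone of 5 rose, with a log2 fold change of 1.24 (SE 0.28, limma adjusted p = 0.0231), lost without VC.1, AP.2 or AP.4; near-identical globin genes can share reads. Hba-a2 was lower by DESeq2 and at an unadjusted p under 0.05 by limma, but was above 0 with scaling by total counts. Their sum was 780.4, 507, 905 and 553 normalized counts in VC, against 1077, 1550, 683 and 752 in AP, highest in AP.2 as in the vessel genes, and Alas2 was at 0 in VC.1. None of 5 adipocyte markers passed by limma, edgeR or DESeq2, with 1 higher at an unadjusted p under 0.05 by each. The adipocyte sum, led by Fabp4, was 19220, 5305, 6885 and 10114 in VC, against 10841, 16613, 8352 and 6561 in AP, so AP.2 was the highest AP library here too. None of 6 fibroblast markers passed by the same tools, with 1 higher at an unadjusted p under 0.05 by each, and their sum, led by Col1a1, was 113491, 76169, 78165 and 214350 in VC, against 248493, 185673, 133545 and 94665 in AP. None of 6 skeletal muscle markers passed by these tools, with 4 lower at an unadjusted p under 0.05 by limma and none by edgeR or DESeq2. The muscle sum, led by Acta1, was 39996, 62422, 31337 and 31557 in VC, against 63650, 7876, 4684 and 10000.5 in AP. AP.1 thus held as much RNA of these markers as the VC libraries.

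Fold changes over all genes went with transcript length. The median log2 fold change was -0.26 in genes whose longest transcript had up to 1500 bases and 0.50 in those over 8000 bases. The vascular genes, the 10 included, had medians of 0.52 and 1.93 in these classes, the latter over 5 genes. The median length was 4114.5 bases for the 10 genes and 3171 for all genes tested. With the length trend removed, the median of the 10 genes was 1.19, Flt1 and Pecam1 kept an adjusted p under 0.05 by limma, and Vwf moved from a log2 fold change of 1.23 to 0.78 and Kdr from 1.38 to 1.06. Of the other 111 vascular genes, 21 were then higher and 1 was lower, beside 580 and 531 of all 15962 genes. Scaling by total counts raised the median of all genes to 0.90 and that of the 10 genes to 2.27, and Lyve1 was then at 1.20. Total counts include the mitochondrial reads, whose share differed between the groups.

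Genes with the most similar profile over the 8 libraries were sought among 11247 others with a mean of at least 50 normalized counts. Likeness was the root mean square difference between log2(value + 1) profiles, each centred on its own mean. Closest to Vegfa were Extl3 (0.09), Pde4b (0.11) and Pdzd8 (0.12), and the nearest of the other 9 genes was Eng (0.42). Extl3 had 236, 328, 352 and 330.0 normalized counts in VC, against 479, 602, 485 and 475 in AP. Like Vegfa it was lowest in VC.1 and highest in AP.2. Closest to Kdr were Scarb1 (0.26), Syne3 (0.35) and Gbp9 (0.38), and the nearest of the other 9 was Eng (0.48). With 11247 candidates against 9, no conclusion is drawn from which came closer. Scarb1 had 393, 294, 310.0 and 594 normalized counts in VC, against 830.4, 1956, 1006 and 747 in AP. It shared with Kdr a high VC.4 and an AP.4 that was the lowest of the AP libraries.

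Promoters of 6 of the 10 genes were listed in the RefSeq table (GRCm38.p6): Vegfa, Kdr, Flt1, Tek, Tie1 and Eng. Pecam1, Cdh5, Vwf and Lyve1 were not matched. The bases from 250 to 11 before the start were searched on both strands for 5 motifs, and the share of 32817 promoter windows of the same length that hold each was counted. The core of the hypoxia response element, ACGTG, was in 15.9% of windows. The first of a pair of Ets cores that overlap in all but their first letter, AGGAAG, was in 28.4%. The second Ets core, spelled CGGAAG, was found in 12.7% of the windows. The Sp1 box, GGGCGG, was in 31.3% of windows. The AP-1 motif, TGANTCA, was in 6.58% of windows. The windows of Vegfa, at its distal start (chr17:46032388-46032627, minus strand), of Kdr (chr5:75978466-75978705, minus strand) and of Flt1 (chr5:147726022-147726261, minus strand) are shown because these are the ligand and its receptors, with every match on either strand in capitals.
Vegfa: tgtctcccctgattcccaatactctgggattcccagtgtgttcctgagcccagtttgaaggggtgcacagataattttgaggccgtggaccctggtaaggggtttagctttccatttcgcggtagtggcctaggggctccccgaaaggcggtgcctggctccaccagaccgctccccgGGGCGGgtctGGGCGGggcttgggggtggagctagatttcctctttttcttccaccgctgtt
Kdr: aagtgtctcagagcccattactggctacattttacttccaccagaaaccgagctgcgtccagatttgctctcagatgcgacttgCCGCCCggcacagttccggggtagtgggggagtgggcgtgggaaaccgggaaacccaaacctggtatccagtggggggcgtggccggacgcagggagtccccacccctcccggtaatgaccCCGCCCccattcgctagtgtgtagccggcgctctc
Flt1: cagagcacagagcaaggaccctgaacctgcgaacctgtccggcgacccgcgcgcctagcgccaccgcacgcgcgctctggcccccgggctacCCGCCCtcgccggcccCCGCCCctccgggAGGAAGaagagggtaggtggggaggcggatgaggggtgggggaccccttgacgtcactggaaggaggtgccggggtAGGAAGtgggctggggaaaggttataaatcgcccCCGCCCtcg
The Sp1 box was found at 2 places in Vegfa, at 2 in Kdr and at 3 in Flt1, and the first Ets core at 2 places in Flt1. The Tie1 window, which lies largely inside the gene as GENCODE M21 has it, held each Ets core at 1 place and the Eng window the first at 1, and no motif was found in the Tek window. The hypoxia response core was in none of these 6 windows and at 1 place in a window at a second listed start of Vegfa, inside the gene. Bases outside the windows, such as those farther from the start, were not searched. A match is a run of letters and no measure of binding.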

How the data were processed

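The authors aligned reads to mm10 with STAR and, by their methods, counted them with featureCounts, while the submitters' processing notes name HTSeq. The deposited signal is a read count divided by a DESeq2 size factor, 1 per library. All 150160 values were whole reads within 0.01 of a read. The deposited columns of the authors' own comparison (mean, fold change with its error, score, p-value and adjusted p-value) were not used. The main test was limma 3.58.1 (R 4.3.3) with an intensity trend on log2(value + 1), on the 15964 genes that reached 3 normalized counts in 4 or more libraries, with Benjamini-Hochberg adjustment. On recovered reads, edgeR 4.0.16 called 1003 genes higher and 712 lower, and DESeq2 1.42.0 was run too. Other alternatives were voom, no intensity trend, other pseudocounts, filters, scalings and thresholds, a loess correction (span 0.3) for transcript length, and each library left out.

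Mitochondrial shares differed with p = 0.0286 by a two-sided exact permutation test, the smallest that 4 against 4 allow. Pairs of replicates differed by a chi-square of 14.7 to 74.2 per degree of freedom, over genes with 10 or more reads in the pair. Coordinates and exons came from GENCODE M21. The members and lists were chosen with earlier results of these data known. Named were the 10 genes, genes of the vascular lists with an adjusted p under 0.05, and the most abundant Vegf ligands. Of the marker lists the most abundant gene was named, with any gene at 0 in a library, and of the blood endothelium list every gene. For Vegfa and Kdr the 3 nearest profiles were named. Egfl7, Tspan18, Sox18, Bcl6b, Mef2c, Des and Hba-a2 were named because their values were lower in AP. Of the listed genes, Ccl21a, Gp9 and Gp1bb were not found by symbol, Ppbp did not pass the filter, and 1 leukocyte marker is not reported here.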

Additional observations from a re-analysis of the deposited data

Results flagged for a closer look

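On the log2(value + 1) scale, 3 of 20 groups of 4 libraries held a library far from the other 3, each time AP.2 at the top of the AP group. The gap from AP.2 to the next library, as a share of the range of the group, was 0.918 in Pecam1, 0.879 in Cdh5 and 0.937 in Tie1, above Dixon's critical value for groups of 4. Chance flags about 1 in 20 groups, and the 10 genes share their libraries. The cause was not tested.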

How the results depend on the processing

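The log2 fold change of each of the 10 genes kept its sign under all 21 alternatives. Of these 210 values, 179 stayed on their side of the adjusted threshold, 21 passed it newly and 10 no longer did. The number of the 10 genes called higher, 3, was also 3 with edgeR, but 9 with DESeq2 and 0 without the intensity trend. Without that trend, 9 were higher at an unadjusted p under 0.05. The number was 5 with a pseudocount of 5, 10 with total counts, 9 by the criteria of the methods and 9 at an adjusted p under 0.10. Scaled without mitochondrial genes, the number was 3 by median of ratios and 4 by total counts, beside 1008 and 957 of all genes. With a library left out it was 1 to 5 (1 without VC.1, 5 without VC.3 or VC.4). For an adjusted p under 0.10, and for an unadjusted p under 0.05 without the trend, no share of all genes was counted. The counts at these thresholds therefore have no share beside them. None of the 10 was called lower under any alternative. For the other vascular genes, 26 higher became 9 without the intensity trend, 90 with total counts and 12 to 28 with a library left out. Scaled without mitochondrial genes, the number higher was 26 by median of ratios and 24 by total counts. At an adjusted p under 0.10 the number was 44, again without a share of all genes to set beside it. The 2 lower became 5 with DESeq2, 1 without the intensity trend, 1 without a filter, 0 with total counts, 1 with total counts without mitochondrial genes, 1 with the length trend removed, 5 at an adjusted p under 0.10 and 0 to 3 with a library left out. The cause was not tested, except that leaving out a library leaves fewer samples. Over all genes, 1677 were higher and 1362 lower with DESeq2, 376 and 216 without the intensity trend, 8657 and 70 with total counts, 890 and 892 with upper-quartile factors, 715 and 723 with voom and 580 and 531 with the length trend removed, against 1011 and 639 in the main comparison. A pseudocount of 5 gave 1140 and 711, no filter 987 and 565 of 18770, and total counts without mitochondrial genes 957 and 540. Leaving out AP.3 gave 209 and 94, leaving out AP.4 gave 254 and 139, and leaving out AP.2 gave 398 and 155. The counts were 585 and 261 without VC.1, 993 and 503 without VC.2, and 1006 and 522 without VC.3. They were 725 and 473 without VC.4, and 1082 and 817 without AP.1. No paired analysis was possible because the labels number the mice of the groups differently and the numbers of the libraries could not be tied to mice.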
